A study of Mus musculus with 9 samples.

Results

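The genes described here are 9 parts of the interferon receptors and of the JAK-STAT relay behind them: the receptor chains Ifnar1, Ifnar2, Ifngr1 and Ifngr2, the kinases Jak1, Jak2 and Tyk2, and the factors Stat2 and Irf9. They were listed by name, and all 9 were found among the 15228 genes of the deposited table. The cells had been isolated as retinal ganglion cells (RGCs), the neurons whose axons form the optic nerve, from wild-type (WT) mice in 3 groups of 3 libraries. Ctrl came from normal retinas. ONC and TPEN came from retinas 3 d after an optic nerve crush, with PBS or the zinc chelator TPEN injected into the eye, so the pair differed in the agent and shared the crush. No injection is named for Ctrl, so the crush and the injection cannot be told apart in ONC/Ctrl or TPEN/Ctrl. The study's methods name C57BL/6J among its mice and young adults for the surgery, and leave unsaid whether each library had mice of its own, so p-values measure the spread between these libraries, which may be technical. The gate kept CD90.2+ cells without CD48, CD15 and CD57, and no uninjured retina with TPEN is analysed here.

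Interferons signal through pairs of receptor chains. Type I interferons bind IFNAR1 and IFNAR2, which carry the kinases TYK2 and JAK1, and lead to the complex ISGF3, which holds STAT2 and IRF9 and binds the interferon-stimulated response element (ISRE). Interferon gamma binds IFNGR1 and IFNGR2, which carry JAK1 and JAK2, and its response runs through the gamma-activated site (GAS). In the nervous system microglia and macrophages respond strongly to both, and neurons respond as well. The genes of STAT2 and IRF9 are themselves induced by interferon in many cells.

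Levels were RPKM, read numbers scaled to exon length and library size, and totals recovered from them ran from 20077226 to 23109754 reads in Ctrl, 22967138 to 22986065 in ONC and 19946993 to 22217283 in TPEN. Differences are log2 fold changes of RPKM + 0.1 with their standard error (SE), tested with limma and adjusted by the Benjamini-Hochberg method over all 13566 genes whose mean reached 0.5 RPKM. A gene was called when its adjusted p was under 0.05. Of the RGC markers, Rbpms stayed at or below 0.688 RPKM, Pou4f1 at or below 0.678 RPKM and Slc17a6 at or below 0.534 RPKM in every library, so these defining markers of the labelled cell type were near absent, while Nefl and Sncg, which mark RGCs less strictly, were well above them. The 10 RGC markers summed to 364.1 to 374.1 in Ctrl, 372.6 to 394.6 in ONC and 290.1 to 304.3 in TPEN, in RPKM. Most of the sum was Nefl, with means of 258, 265 and 198 RPKM. Of the 7 tested, 2 were higher (11.7% of all genes tested) and 1 lower (6.97%) in ONC/Ctrl. In TPEN/ONC 3 of these markers were lower (4.14% of all genes) and 1 higher (3.24%). Among those below the filter, Pou4f1 averaged 0.571 in Ctrl and 0.183 in ONC, and Rbpms 0.605 and 0.393, without overlap. Slc17a6 went the other way, with 0.268 in Ctrl and 0.435 in ONC, also without overlap. The 9 rod markers summed to 19590 to 20425 in Ctrl, 17245 to 17459 in ONC and 18511 to 18626 in TPEN. The 18 markers of microglia and macrophages summed to 10.3 to 10.6 in Ctrl, 80.3 to 83.8 in ONC and 40.9 to 43.4 in TPEN, in RPKM, and none of the 18 was at 0 in every library. The 3 endothelial markers with a level, of 8 on the list, summed to 13.4 to 14.2 in Ctrl, 15.7 to 16.1 in ONC and 16.8 to 17.8 in TPEN, in RPKM. Most of that sum was Kdr, with means of 10.7, 12.5 and 14.1 RPKM, while Pecam1 and Flt1 were not called in any comparison. More cells of a type and more RNA per cell cannot be told apart in such bulk libraries.

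The order of levels put the kinases Jak1 and Jak2 on top and Ifnar2 at the bottom in each group. Over all 9 libraries the mean was 13.8 RPKM for Jak1, 13.7 RPKM for Jak2, 11.7 RPKM for Ifngr1, 8.03 RPKM for Stat2, 5.30 RPKM for Irf9, 4.22 RPKM for Ifnar1, 2.27 RPKM for Ifngr2, 1.55 RPKM for Tyk2 and 0.806 RPKM for Ifnar2. Jak1 and Jak2 overlapped within each group, and Jak2 also overlapped Ifngr1 in Ctrl, while no other neighbours in the order overlapped. Irf9 lay below Ifnar1 in Ctrl and above it in ONC and TPEN. Within a type of receptor the chains were far apart, with Ifnar1 above Ifnar2 and Ifngr1 above Ifngr2 in every library.

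In ONC/Ctrl, 4 of the 9 genes were higher, namely Ifnar2, Ifngr2, Stat2 and Irf9, where 11.7% of all genes tested were called higher. By limma 0 of the 9 were lower, against 6.97% of all genes, and 0 were lower at an unadjusted p under 0.05 or in the fit on read numbers (voom). In TPEN/ONC, Ifnar2, Stat2 and Irf9 were lower, which is 3 of 9 where 4.14% of all genes were, and 0 were higher by limma, by voom or at an unadjusted p under 0.05, where 3.24% of all genes were called higher. In TPEN/Ctrl, Ifnar2, Stat2 and Irf9 were higher, 3 of 9 where 8.36% of all genes were, and 0 were lower by limma, by voom or at an unadjusted p under 0.05, where 5.01% of all genes were called lower. ONC/Ctrl and TPEN/ONC share the ONC libraries, so their values stand side by side without a test of the pair. Where a 1.5-fold change was also asked for, 2 genes (Ifnar2 and Irf9) were called higher in ONC/Ctrl, where 4.58% of all genes were. The same 2 were called lower with TPEN than with PBS, where 1.21% of all genes were, and 1 (Ifnar2) was called higher in TPEN/Ctrl, where 3.45% were. The filter on low values passed all 9 genes, but Ifnar2 passed it only through ONC and TPEN, since its mean in Ctrl was 0.347 RPKM.

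**Figure D1:**
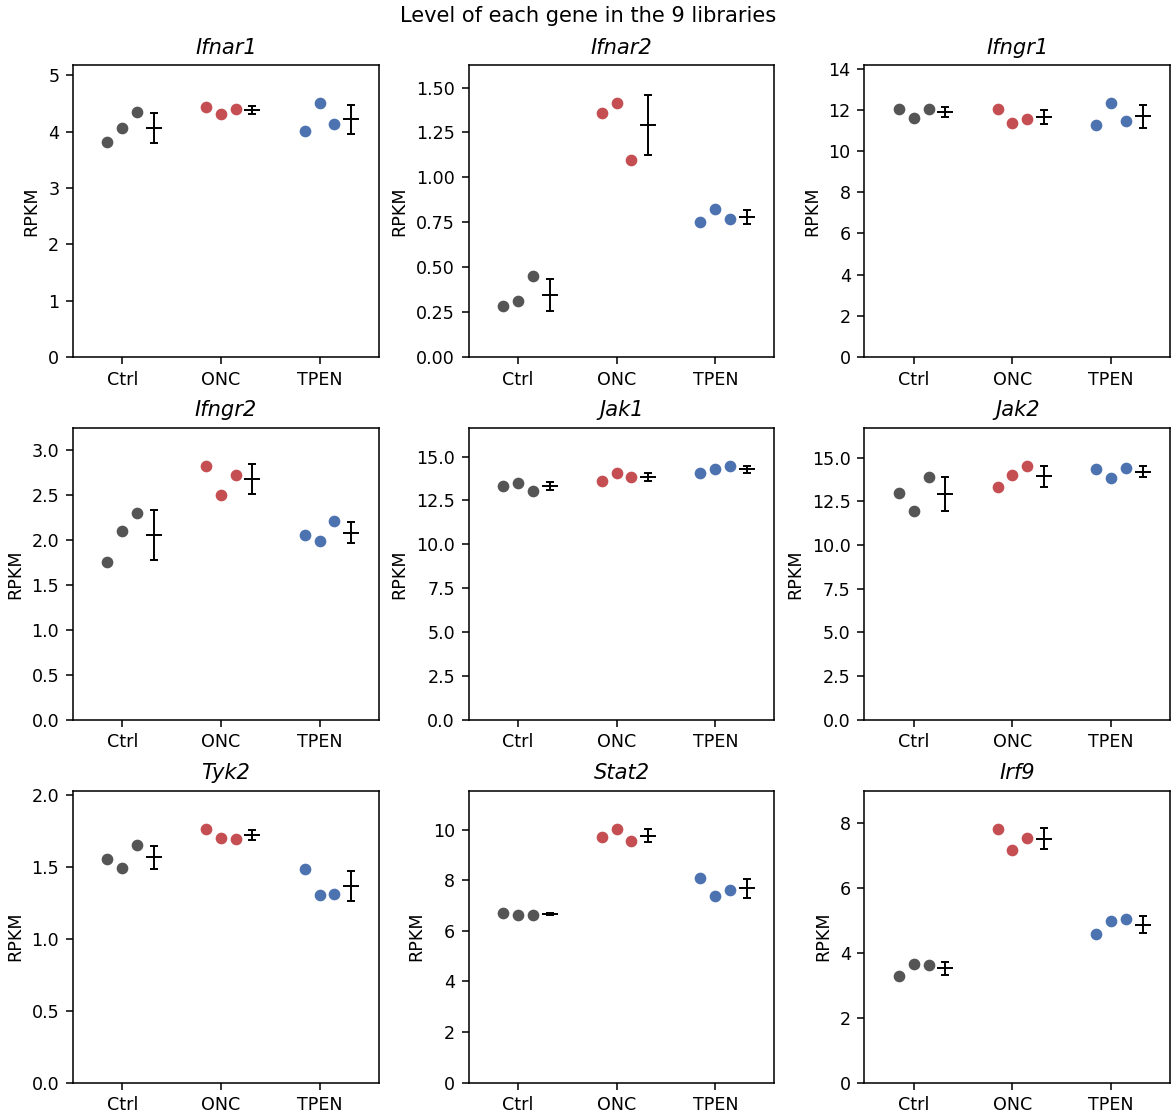
RPKM (linear axis from 0) of each of the 9 genes in the 3 libraries of Ctrl, ONC and TPEN. Points are libraries and the bar beside them is the mean ± SD (n = 3). For Ifnar2, Stat2 and Irf9 the 3 ONC libraries lay above all others and the TPEN libraries lay between those of ONC and Ctrl, while Ifnar1, Ifngr1 and Jak2 overlapped between groups.

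Counted by libraries alone, 6 of the 9 genes had every ONC library above every Ctrl library (Ifnar2, Ifngr2, Jak1, Tyk2, Stat2 and Irf9), where 20.7% of all genes did, and 0 had every ONC library below, where 15.8% did. Every TPEN library lay below every ONC library for 5 genes (Ifnar2, Ifngr2, Tyk2, Stat2 and Irf9), where 15.6% of all genes showed this, and above for 1 gene (Jak1), where 12.5% did. Every TPEN library lay above every Ctrl library for 4 genes (Ifnar2, Jak1, Stat2 and Irf9), where 18.1% did, and below for 1 gene (Tyk2), where 13.3% did. With 3 libraries against 3, an exact permutation test of a pair of groups cannot give a p under 0.1, so the exact tests below are over all 3 groups, with 280 ways to form them and a smallest p of 0.00357. A total of 9 genes and 5 ratios were tested in that way.

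The promoters of Stat2 and Ifnar2, which passed the test, and of Ifnar1, which did not, are shown as examples of windows with and without an interferon motif. The windows hold the 250 bases before the RefSeq start of each gene (GRCm38.p6, + strand, 5′ to 3′), with matches in capitals. The core of the ISRE was searched as GAAANNGAAA and the core of the GAS as TTCNNNGAA, on both strands, and the cores do not overlap in these windows.
Stat2, chr10:128270248-128270497: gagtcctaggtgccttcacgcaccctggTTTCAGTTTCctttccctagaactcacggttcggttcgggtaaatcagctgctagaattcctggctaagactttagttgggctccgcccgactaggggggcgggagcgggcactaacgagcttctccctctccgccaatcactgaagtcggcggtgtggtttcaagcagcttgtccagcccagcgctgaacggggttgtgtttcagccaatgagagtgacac
Ifnar2, chr16:91372533-91372782: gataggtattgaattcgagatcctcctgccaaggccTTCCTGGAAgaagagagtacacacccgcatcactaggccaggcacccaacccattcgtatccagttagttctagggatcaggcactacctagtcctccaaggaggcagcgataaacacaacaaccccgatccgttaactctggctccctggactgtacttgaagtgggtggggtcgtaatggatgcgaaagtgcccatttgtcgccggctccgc
Ifnar1, chr16:91484965-91485214: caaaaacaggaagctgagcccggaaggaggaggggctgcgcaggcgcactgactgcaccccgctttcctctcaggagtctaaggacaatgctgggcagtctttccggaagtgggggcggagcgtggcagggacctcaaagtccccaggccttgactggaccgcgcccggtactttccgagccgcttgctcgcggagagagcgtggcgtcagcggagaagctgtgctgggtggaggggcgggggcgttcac

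The Stat2 window held an ISRE core on the opposite strand, from base 222 to base 213 before the start, so the capitals show its reverse complement. The Ifnar2 window held a GAS core from base 214 to base 206 before the start, which reads as a GAS core on both strands, as every match to these letters does. In the Ifnar1 window neither core was found. RefSeq gave 10 windows for the 9 genes, with a pair for Irf9. Of these, 1 held the ISRE core and 1 the GAS core. Irf9 and Ifngr2 were also called in ONC/Ctrl, and none of their windows held these letters. Among 32851 windows of the same length, 2.98% held the ISRE core and 7.02% the GAS core. A match describes the letters only, and binding was not measured.

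Ifnar2, the chain that binds type I interferon with high affinity and recruits STAT2, had the largest fold change of the 9 genes in each comparison at a pseudocount of 0.1 RPKM. Its promoter window held the GAS core, as did 7.02% of all windows searched, and a link to its level was not tested. Ifnar2 had 0.281, 0.312 and 0.449 RPKM in Ctrl, 1.36, 1.41 and 1.10 RPKM in ONC, and 0.752, 0.825 and 0.768 RPKM in TPEN. The 3 groups did not overlap, with Ctrl lowest and ONC highest (exact permutation p = 0.00357 over the 3 groups, the smallest possible). The mean was 0.347 ± 0.0892 RPKM in Ctrl and 1.29 ± 0.168 RPKM in ONC (SD, n = 3), a ratio of 3.71. Its log2 fold change was 1.65 (SE 0.17, limma adjusted p = 1.17e-04) in ONC/Ctrl and -0.65 (SE 0.17, limma adjusted p = 0.0498) in TPEN/ONC. With a pseudocount of 1 RPKM the fold changes of Ifnar2 were 0.76, -0.36 and 0.40 in ONC/Ctrl, TPEN/ONC and TPEN/Ctrl, and those of Irf9, 0.91 and -0.54, were larger in ONC/Ctrl and TPEN/ONC. The call of Ifnar2 in TPEN/ONC was at the threshold, and it was lost when any library but Ctrl replicate 3 was left out (limma adjusted p from 0.0263 to 0.155). In TPEN, 46.0% ± 4.07 (SD of the TPEN libraries, n = 3) of the rise over Ctrl remained, and the log2 fold change of TPEN/Ctrl was 0.996 (SE 0.17, limma adjusted p = 0.00401). That SD leaves out the spread of Ctrl and ONC, whose means were taken as fixed. The values rest on 21 to 108 reads a library. Of its exon bases 9.46% also belong to Gm21970 on the same strand, so part of its reads is uncertain.

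Ifnar1, the other chain of the type I receptor, which carries TYK2, did not pass the test. It had 3.81, 4.06 and 4.34 RPKM in Ctrl, 4.43, 4.31 and 4.41 RPKM in ONC, and 4.02, 4.50 and 4.13 RPKM in TPEN. The groups overlapped (exact permutation p = 0.254). Ifnar1 had a log2 fold change of 0.11 in ONC/Ctrl, with a 95% interval from -0.06 to 0.27, and -0.06 in TPEN/ONC, with an interval from -0.22 to 0.11. The chains of one receptor changed unequally by the ratio within each library. Ifnar2 had 0.0739, 0.0769 and 0.103 times the RPKM of Ifnar1 in Ctrl, 0.307, 0.328 and 0.249 times in ONC, and 0.187, 0.183 and 0.186 times in TPEN. The log2 ratio differed by 1.54 between ONC and Ctrl and by -0.59 between TPEN and ONC (exact permutation p = 0.00357 over the 3 groups). With a pseudocount of 1 RPKM these differences were 0.68 and -0.31, with the same p.

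Ifngr1, the chain that binds interferon gamma and carries JAK1, did not pass the test either. It had 12.05, 11.61 and 12.04 RPKM in Ctrl, 12.03, 11.4 and 11.6 RPKM in ONC, and 11.3, 12.3 and 11.4 RPKM in TPEN. The groups overlapped (exact permutation p = 0.689), and the 95% interval of its log2 fold change ran from -0.14 to 0.08 in ONC/Ctrl and from -0.10 to 0.11 in TPEN/ONC.

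Ifngr2, the chain that carries JAK2, had 1.75, 2.10 and 2.3002 RPKM in Ctrl, 2.82, 2.497 and 2.72 RPKM in ONC, and 2.05, 1.98 and 2.21 RPKM in TPEN. All ONC libraries lay above the others, and TPEN overlapped Ctrl (exact permutation p = 0.0321 over the 3 groups). Ifngr2 had a log2 fold change of 0.38 (SE 0.11, limma adjusted p = 0.0421) in ONC/Ctrl, -0.35 (SE 0.11, limma adjusted p = 0.0961) in TPEN/ONC and 0.03 (SE 0.11, limma adjusted p = 0.910) in TPEN/Ctrl. Its call in ONC/Ctrl was lost when any library but Ctrl replicate 3 was left out (limma adjusted p from 0.0257 to 0.128), with quantile normalization (0.0618) and with the 6 libraries compared alone (0.0714). The ratio of Ifngr2 to Ifngr1 was 0.172 in Ctrl, 0.230 in ONC and 0.179 in TPEN by group means, and its log2 value was 0.41 higher in ONC than in Ctrl (exact permutation p = 0.0214 over the 3 groups). That p rose to at most 0.0857 when a library was left out, and it was no longer under 0.05 without any 1 of the ONC libraries or without TPEN replicate 1.

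**Figure D2:**
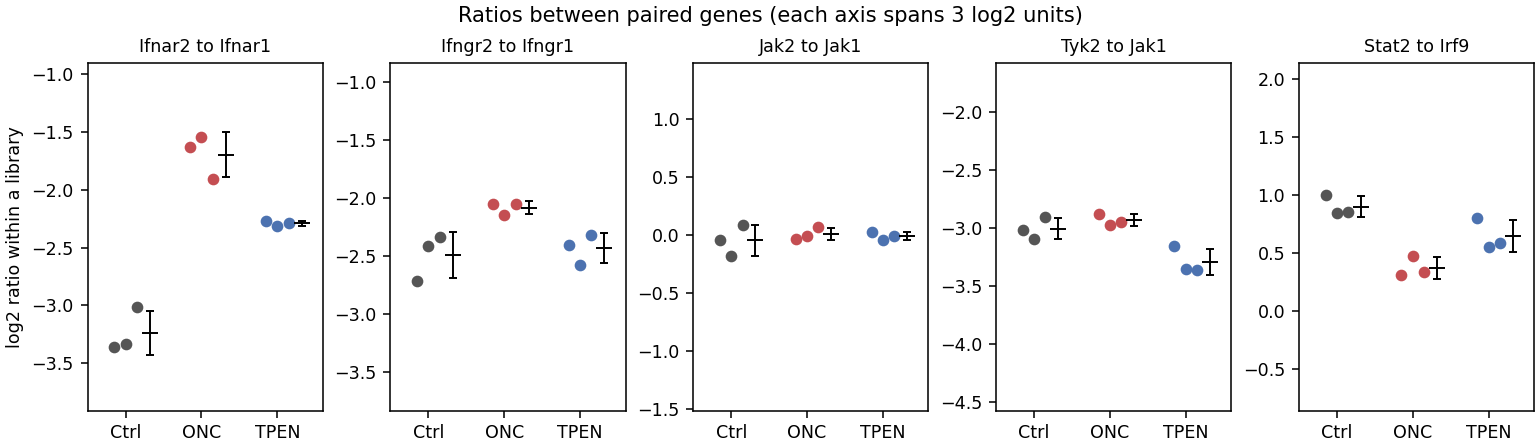
The log2 ratio of RPKM + 0.1 between paired genes within each library, with the mean ± SD (n = 3) beside the points of each group. Each axis spans the same number of log2 units. The ratio of Ifnar2 to Ifnar1 was highest in ONC and intermediate in TPEN, that of Stat2 to Irf9 was lowest in ONC, and that of Jak2 to Jak1 overlapped in all groups.

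On chromosome 16 (GRCm38) the genes Ifnar2 (91372783 to 91405589), Ifnar1 (91485238 to 91507441) and Ifngr2 (91547072 to 91565169) lie on the + strand, with Il10rb, a chain of the receptors for interleukin 10 and interferon lambda, between Ifnar2 and Ifnar1 (91406164 to 91425834). Il10rb had 0.0469, 0.0909 and 0.131 RPKM in Ctrl, 0.685, 0.617 and 0.663 RPKM in ONC, and 0.276, 0.307 and 0.513 RPKM in TPEN. It was below the filter and was not tested, its groups did not overlap, and 14.9% of its exon bases also belong to Gm21970. Thus Ifnar2, Il10rb and Ifngr2 all had their highest libraries in ONC, while Ifnar1, which lies between Il10rb and Ifngr2, did not pass the test. Since Gm21970 shares exon bases with both Ifnar2 and Il10rb, the values of these genes are not fully separate. Il10rb had only 4, 8 and 10 reads in Ctrl.

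Jak1, the kinase shared by both receptors, had 13.3, 13.5 and 13.1 RPKM in Ctrl, 13.6, 14.1 and 13.8 RPKM in ONC, and 14.1, 14.3 and 14.5 RPKM in TPEN. The groups did not overlap and TPEN was highest (exact permutation p = 0.00357 over the 3 groups), but the steps were small. The log2 fold change was 0.06 (SE 0.04, limma adjusted p = 0.337) in ONC/Ctrl, 0.04 (SE 0.04, limma adjusted p = 0.534) in TPEN/ONC and 0.10 (SE 0.04, limma adjusted p = 0.107) in TPEN/Ctrl.

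Jak2, the kinase on IFNGR2, had 13.0, 11.9 and 13.9 RPKM in Ctrl, 13.3, 14.0 and 14.5 RPKM in ONC, and 14.4, 13.8 and 14.4 RPKM in TPEN. The groups overlapped (exact permutation p = 0.0964), and its log2 fold change was 0.11 in ONC/Ctrl, with a 95% interval from -0.02 to 0.24, and 0.03 in TPEN/ONC, with an interval from -0.11 to 0.16. The ratio of Jak2 to Jak1 was 0.972, 1.01 and 0.995 in Ctrl, ONC and TPEN by group means (exact permutation p = 0.782).

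Tyk2, the kinase on IFNAR1, had its lowest libraries in TPEN. Its levels were 1.56, 1.494 and 1.65 RPKM in Ctrl, 1.77, 1.71 and 1.70 RPKM in ONC, and 1.487, 1.305 and 1.31 RPKM in TPEN. The groups did not overlap, with TPEN lowest and ONC highest (exact permutation p = 0.00357 over the 3 groups), but the nearest Ctrl and TPEN libraries were at 1.494 and 1.487 RPKM. It did not pass the test across all genes, with a log2 fold change of 0.13 (SE 0.10, limma adjusted p = 0.406) in ONC/Ctrl, -0.32 (SE 0.10, limma adjusted p = 0.0868) in TPEN/ONC and -0.19 (SE 0.10, limma adjusted p = 0.257) in TPEN/Ctrl. Relative to Jak1 it was 0.118 in Ctrl, 0.125 in ONC and 0.0960 in TPEN by group means, a log2 difference of -0.36 between TPEN and ONC (exact permutation p = 0.0107 over the 3 groups). On the opposite strand 1700084C06Rik covers 8.07% of the exon bases of Tyk2, and the study's methods do not say that strand was used in counting.

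Stat2, the STAT that joins IRF9 and lends ISGF3 its activation domain, is the gene with the ISRE core in its promoter window, as 2.98% of all windows searched had. It had 6.72, 6.63 and 6.64 RPKM in Ctrl, 9.70, 10.03 and 9.54 RPKM in ONC, and 8.09, 7.36 and 7.59 RPKM in TPEN. The groups did not overlap and TPEN lay between the others (exact permutation p = 0.00357 over the 3 groups). Stat2 had a log2 fold change of 0.54 (SE 0.05, limma adjusted p = 6.19e-05) in ONC/Ctrl and -0.34 (SE 0.05, limma adjusted p = 0.00421) in TPEN/ONC, and both calls held in every alternative fit. In TPEN/Ctrl it was 0.20 (SE 0.05, limma adjusted p = 0.0291), a call that was lost without any 1 of the Ctrl libraries, without TPEN replicate 1 and without TPEN replicate 3 (limma adjusted p from 0.0340 to 0.0943 over the left-out libraries). Of the rise over Ctrl, 33.0% ± 12.1 (SD of the TPEN libraries alone, n = 3) remained in TPEN.

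Irf9, the part of ISGF3 that contacts DNA, had 3.30, 3.66 and 3.63 RPKM in Ctrl, 7.82, 7.17 and 7.55 RPKM in ONC, and 4.58, 4.99 and 5.04 RPKM in TPEN. All groups were apart (exact permutation p = 0.00357 over the 3 groups). The log2 fold change was 1.07 (SE 0.07, limma adjusted p = 4.85e-06) in ONC/Ctrl, -0.62 (SE 0.07, limma adjusted p = 8.78e-04) in TPEN/ONC and 0.45 (SE 0.07, limma adjusted p = 0.00201) in TPEN/Ctrl. These 3 calls held in every alternative fit, and 33.7% ± 6.29 (SD of the TPEN libraries alone, n = 3) of the rise remained in TPEN. Its exons share 2.28% of their bases with Rnf31 on the same strand. Irf9 rose more than its partner, since Stat2 stood at 2.04, 1.81 and 1.83 times the RPKM of Irf9 in Ctrl, 1.24, 1.40 and 1.26 times in ONC, and 1.77, 1.48 and 1.51 times in TPEN. The log2 ratio differed by -0.53 between ONC and Ctrl and by 0.27 between TPEN and ONC (exact permutation p = 0.00357 over the 3 groups).

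**Figure D3:**
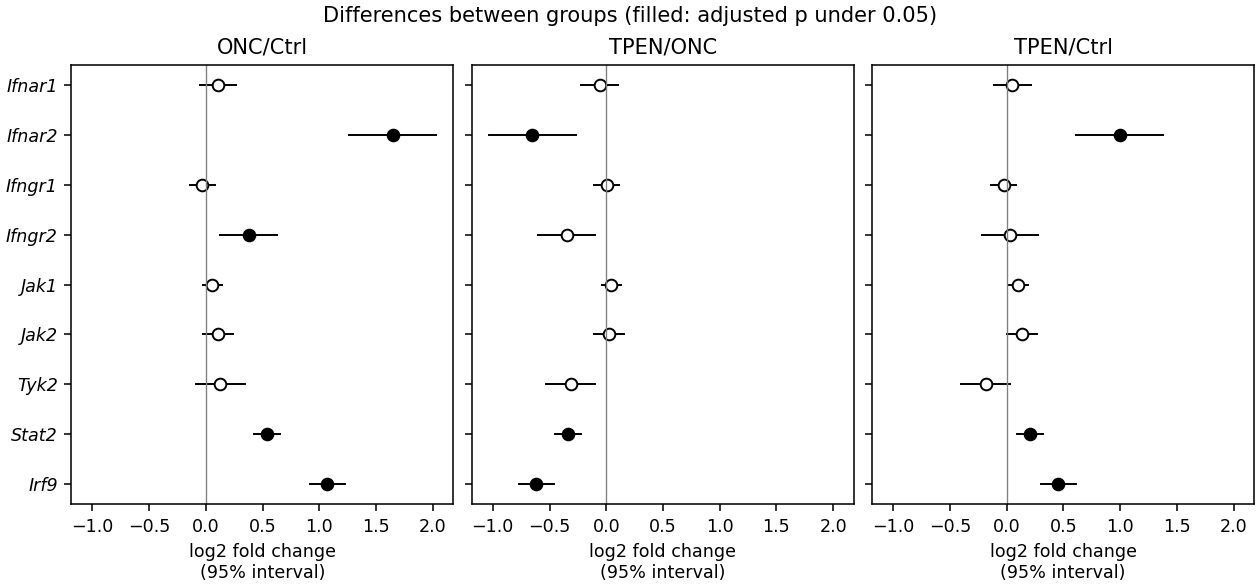
The log2 fold change of RPKM + 0.1 (horizontal axis) of each gene in ONC/Ctrl, TPEN/ONC and TPEN/Ctrl, with its 95% interval from limma. Filled points had an adjusted p under 0.05. In ONC/Ctrl the fold changes ran from -0.03 for Ifngr1 to 1.65 for Ifnar2, and the 3 genes called in TPEN/ONC were among the 4 called in ONC/Ctrl.

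The pathway around the 9 genes was read from 6 lists of other genes. None of the 20 genes on the list of interferon ligands is analysed here. The other 5 lists held 84 genes with a level, of which 62 passed the filter on low values, and 25 of these had a Ctrl mean under 0.5 RPKM and passed through ONC or TPEN, so their counts describe the lists and are not a measure of their strength. In ONC/Ctrl 48 of the 62 were higher and 1 lower (medians 1.66 for these genes and 0.02 for all genes tested, log2), where 11.7% and 6.97% of all genes were. In TPEN/ONC 26 were lower and 0 higher (median -0.54 against -0.01 for all genes), where 4.14% and 3.24% of all genes were. Of the 62, 2 were higher at an unadjusted p under 0.05 and 1 was higher by voom. In TPEN/Ctrl 40 were higher and 0 lower (median 1.04 against 0.01), also with 0 lower by voom or at an unadjusted p under 0.05. Of all genes, 8.36% were higher there and 5.01% lower. The shares over all genes given here also stand beside the counts of each single list below. Without a filter, 67 of the 84 were higher in ONC/Ctrl. Of the 26 lower in TPEN/ONC, as few as 15 were called when a library was left out (ONC replicate 2), and 17 without ONC replicate 1, ONC replicate 3 or TPEN replicate 3. Most genes named below from the lists were picked by the size of their change in ONC/Ctrl. TPEN/ONC shares the ONC libraries, so for genes picked as high in ONC a fall there was partly favoured by that choice.

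Of the other receptor, kinase and STAT genes, 4 of 5 tested rose in ONC/Ctrl and 2 fell in TPEN/ONC. Stat3, the STAT of interleukin 6 type cytokines, averaged 3.66 ± 0.138 in Ctrl, 14.6 ± 0.147 in ONC and 13.9 ± 0.223 in TPEN (RPKM ± SD, n = 3). It rose by 1.97 in ONC/Ctrl (SE 0.05, limma adjusted p = 4.94e-09), while its log2 fold change in TPEN/ONC was -0.07 (SE 0.05, limma adjusted p = 0.404).

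Among cytokine receptors that use JAKs, 5 of 8 tested rose in ONC/Ctrl and 2 fell in TPEN/ONC. Il10ra, the chain that binds interleukin 10, averaged 0.187 ± 0.0612 in Ctrl, 2.21 ± 0.513 in ONC and 0.995 ± 0.199 in TPEN (RPKM ± SD, n = 3), and passed the test in both comparisons (limma adjusted p = 1.31e-05 and 0.0208). Il6st (gp130), the shared chain of the interleukin 6 family, rose by 1.21 on the log2 scale in ONC/Ctrl (SE 0.04, limma adjusted p = 9.65e-08) and had a log2 fold change of -0.04 in TPEN/ONC (SE 0.04, limma adjusted p = 0.640). Csf2ra, a chain of the GM-CSF receptor, rose by 0.43 in ONC/Ctrl (SE 0.06, limma adjusted p = 0.00108) and had -0.01 in TPEN/ONC (SE 0.06, limma adjusted p = 0.949).

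Of 15 feedback and inhibitory genes tested, 5 were higher in ONC/Ctrl, 1 was lower (Pias3, a fold change of -0.23 on the log2 scale, named after its values were seen) and 4 were lower in TPEN/ONC. Socs1 is not analysed here. Socs3, which blocks JAKs on gp130, rose by 1.92 on the log2 scale in ONC/Ctrl (SE 0.15, limma adjusted p = 2.07e-05), and its log2 fold change of -0.55 in TPEN/ONC did not pass (SE 0.15, limma adjusted p = 0.0628). Usp18, which binds IFNAR2 and damps type I signalling, averaged 0.114 ± 0.0381 in Ctrl, 1.08 ± 0.195 in ONC and 0.494 ± 0.151 in TPEN (RPKM ± SD, n = 3). Its log2 fold change was 2.47 (SE 0.24, limma adjusted p = 7.96e-05) in ONC/Ctrl and -1.01 (SE 0.24, limma adjusted p = 0.0341) in TPEN/ONC. The phosphatase genes Ptpn6 and Ptpn1 rose by 2.62 and 0.76 on the log2 scale in ONC/Ctrl and fell by 1.13 and 0.35 in TPEN/ONC, all with a limma adjusted p of at most 0.00192.

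All 20 type I interferon-induced genes tested, of 29 listed, were higher in ONC/Ctrl (median 1.69, log2) and 10 were lower in TPEN/ONC (median -0.66). Of the 20, 8 passed the filter on low values only through ONC or TPEN, so a rise over Ctrl was partly built in for them. Ifit3, an antiviral gene of the ISGF3 response, had 4.29, 3.84 and 4.34 RPKM in Ctrl, 28.5, 27.7 and 28.2 RPKM in ONC, and 15.4, 16.6 and 14.9 RPKM in TPEN. Its log2 fold change was 2.73 (SE 0.06, limma adjusted p = 3.29e-09) in ONC/Ctrl and -0.85 (SE 0.06, limma adjusted p = 3.98e-05) in TPEN/ONC. Isg15, a ubiquitin-like protein, and Bst2 (tetherin), which holds virus particles on cells, had log2 fold changes of 3.07 and 2.93 in ONC/Ctrl. In TPEN/ONC they had -1.63 and -1.55 (limma adjusted p of at most 0.0146 in both comparisons). Their Ctrl means were 0.298 and 0.382 RPKM, so they passed the filter only through ONC and TPEN. The summed markers of microglia and macrophages, given above, were likewise highest in ONC and lay between the other groups in TPEN.

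All 14 interferon gamma-induced genes tested, of 19 listed, were higher in ONC/Ctrl (median 2.24, log2) and 8 were lower in TPEN/ONC (median -0.76). Of the 14, 10 passed the filter on low values only through ONC or TPEN, among them H2-Ab1 and Gbp2, named below. For these 10 a rise over Ctrl was partly built in, so the count and the median of the rise do not measure its strength. H2-Ab1, an MHC class II chain, averaged 0.391 ± 0.200 in Ctrl, 5.81 ± 0.402 in ONC and 1.17 ± 0.264 in TPEN (RPKM ± SD, n = 3), with log2 fold changes of 3.68 (SE 0.28, limma adjusted p = 1.50e-05) and -2.24 (SE 0.28, limma adjusted p = 0.00164). The guanylate-binding GTPase genes Gbp3 and Gbp2 rose by 2.80 and 2.66 on the log2 scale in ONC/Ctrl (limma adjusted p of at most 1.32e-05). In TPEN/ONC Gbp3 fell by 1.16 (limma adjusted p = 1.83e-05) and Gbp2 had -0.56 (limma adjusted p = 0.136).

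**Figure D4:**
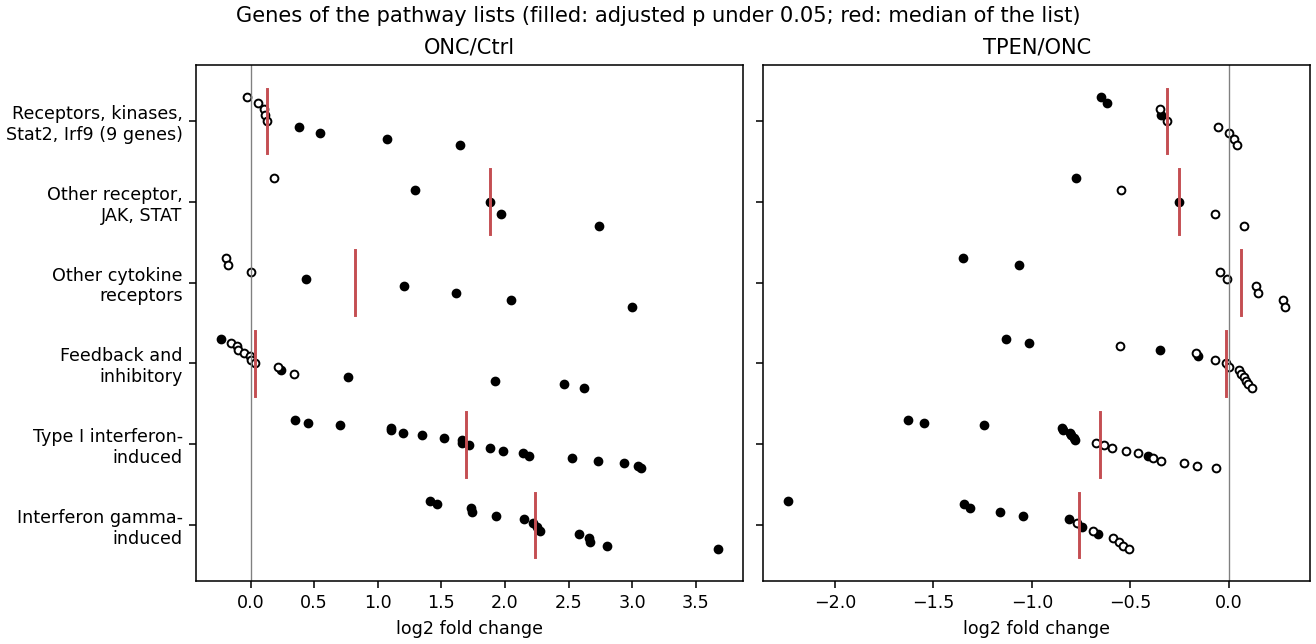
The log2 fold change of RPKM + 0.1 (horizontal axis) in ONC/Ctrl and TPEN/ONC for the 9 genes and for the tested genes of the 5 other lists. Each point is a gene, filled points had an adjusted p under 0.05, and the red line is the median of the list. In ONC/Ctrl 4 of the 9 genes of the receptors and their relay are filled, and the points of the lists of induced genes are filled and above 0, but 8 of 20 and 10 of 14 of these passed the filter on low values only through ONC or TPEN.

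Of the 18 microglia and macrophage markers 16 passed the filter on low values, and 10 of these did so only through ONC or TPEN, so a call of higher in ONC/Ctrl or TPEN/Ctrl was partly built in for them. By that count 16 were called higher in both comparisons, where 11.7% and 8.36% of all genes tested were. In TPEN/ONC 8 were lower, where 4.14% of all genes were, and the sums given above hold all 18. The 10 Müller glia markers summed to 423.0 to 433.5 in Ctrl, 426.3 to 430.1 in ONC and 375.6 to 387.4 in TPEN, in RPKM, but single markers went apart, with 3 higher and 3 lower in ONC/Ctrl. Among them, named after their values were seen, Gfap, which reactive glia raise, had a log2 fold change of 2.95 in ONC/Ctrl and one of -0.62 in TPEN/ONC, while Vim, an intermediate filament gene, had 1.59 and -0.38 (limma adjusted p of at most 0.00306). Glul, the gene of glutamine synthetase, had -0.57 and -0.18 (limma adjusted p of at most 0.00622). In TPEN/ONC 4 of the 10 Müller glia markers were called lower, where 4.14% of all genes tested were. Another 2 were called higher, where 3.24% were, namely Aqp4 and Sox9 (log2 fold changes of 0.30 and 0.29). The single neutrophil marker with a level stayed at or below 0.480 RPKM, and no T cell marker is analysed here. The part of any of these cells in the values of Ifnar2, Ifngr2, Stat2 and Irf9 was not tested.

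By Pearson's r of log2(RPKM + 0.1) over the 9 libraries, the genes with the pattern most like each member were named among 10136 genes as a description, since the points share their libraries and groups. For Irf9 these were Ezr (r = 0.996) and Kremen1 (0.99), for Ifnar2 Map4k4 (0.99) and Ccl3 (0.99), and for Stat2 Cyb5r3 (0.99) and Fn1 (0.99). For Jak1 they were Cecr2 (0.98) and Six6 (0.96), and for Tyk2 Raver1 (0.96) and Wash1 (0.96). The nearest genes to Ifnar1, Ifngr1, Ifngr2 and Jak2 were Zbtb7a (0.93), Prmt9 (0.94), Ecm1 (0.92) and Kpnb1 (0.92), and their next were Phf13 (0.92), Larp4 (0.92), Cnot4 (0.92) and Bcas3 (0.92).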

How the data were processed

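Total RNA was made into stranded mRNA libraries, and per the labels reads were trimmed with Trimmomatic 0.36 and mapped to GRCm38 (mm10), with STAR by the study's methods. The authors deposited RPKM values per gene, which were used here, and the same table held their own tests between groups (log2 fold changes and p-values), which were not used. RPKM times exon length was a whole multiple of 1 step per library for 100% of values (tolerance 0.01 reads), which gave read numbers and totals. The limit that 0 reads allow is 3 reads, for counting error only. Gene annotation, counting strand and collapsing of molecular identifiers are not given in the sources used here.

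Values were tested as log2(RPKM + 0.1) with limma 3.58.1 in R 4.3.3, with a mean-variance trend and all 9 libraries in 1 fit, on genes whose mean reached 0.5 RPKM. The study used a count test. Since the deposited unit is RPKM, the read numbers were used in an alternative only (voom). Groups came from the labels. Exact permutation tests over the 3 groups ranked the ways by the variance between groups, so they have no direction and do not test an order of the groups. Alternatives were a pseudocount of 1 RPKM, no filter, a mean of at least 1 RPKM, quantile normalization, the 6 libraries compared, a replicate block, voom on the read numbers, each library left out, and the 1.5-fold rule. The fit was tested on simulated data. The members and lists were chosen with earlier results of these data known. Named beside the 9 members were, per list, the 3 genes with the largest change in ONC/Ctrl among those called with a mean of at least 1 RPKM, plus Stat3, Il10rb, Socs1, Socs3 and Usp18, and the 2 genes most correlated with each member. An item that the rule also names is not reported here. Promoter windows came from RefSeq (GRCm38.p6).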

Additional observations from a re-analysis of the deposited data

How the results depend on the processing

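Of the calls in the 9 genes, those of Irf9 and Stat2 in ONC/Ctrl and TPEN/ONC, of Ifnar2 in ONC/Ctrl and TPEN/Ctrl and of Irf9 in TPEN/Ctrl held in every alternative fit that tested the gene, and Ifnar2 was dropped by a mean of at least 1 RPKM. Depth limits Ifnar2 most, with 21 to 108 reads a library. Asking for a 1.5-fold change, which is a rule on the main fit, left 2 members called higher in ONC/Ctrl (4.58% of all genes) and 1 in TPEN/Ctrl (3.45%). Under that rule Stat2 was not called in any comparison, and Irf9 was not called in TPEN/Ctrl. A pseudocount of 1 RPKM lowered the size of the Ifnar2 fold change from 1.65 to 0.76 in ONC/Ctrl and of its log2 ratio to Ifnar1 from 1.54 to 0.68, with no call changed. The call of Stat2 in TPEN/Ctrl was lost with the 6 libraries compared (limma adjusted p = 0.0726), quantile normalization (0.0559) and voom (0.0716), and its cause was not tested. With a mean of at least 1 RPKM, 42 other pathway genes were tested in place of 62, and 29 were higher in ONC/Ctrl and 25 in TPEN/Ctrl. Quantile normalization and voom each gave 3 of these genes lower in ONC/Ctrl, and voom 1 higher in TPEN/ONC. With a library left out, 0 to 1 of them were lower in ONC/Ctrl (0 without Ctrl replicate 2 or ONC replicate 1) and 15 to 28 were lower in TPEN/ONC, the log2 ratio of Ifngr2 to Ifngr1 ran from 0.29 to 0.48 in ONC/Ctrl and from -0.41 to -0.28 in TPEN/ONC, and that of Jak2 to Jak1 from -0.0125 to 0.12 in ONC/Ctrl and from -0.0387 to 0.0119 in TPEN/ONC. Fold changes that were not called and changed sign were those of Ifngr1 in TPEN/ONC (-0.0351 to 0.0275), Jak2 in TPEN/ONC (-0.00559 to 0.0560) and Ifngr2 in TPEN/Ctrl (-0.0768 to 0.111, and -0.0240 with quantile normalization).

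Libraries of different groups with the same number did not deviate together (correlations from -0.06 to 0.03, against -0.04 to 0.05 for other pairs). The labels do not say whether the numbers mark a pairing, and with 3 libraries a group these correlations cannot exclude one. A fit with the replicate number as a block was compared with the main fit call by call. Under the block Ifngr2 had a limma adjusted p of 0.0592 in ONC/Ctrl, Ifnar2 0.105 in TPEN/ONC and Stat2 0.0629 in TPEN/Ctrl, and no other call of the 9 genes changed.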
